A study of Homo sapiens with 2 samples.

Results

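The genes described here encode the TGF-β ligands and extracellular matrix proteins grouped with them, not all of which hold the ligands. They are the 3 ligand genes TGFB1, TGFB2 and TGFB3, the 4 latent TGF-β binding proteins LTBP1, LTBP2, LTBP3 and LTBP4, the fibrillins FBN1 and FBN2, and TGFBI, a secreted protein named for its induction by TGF-β. The genes were chosen by symbol, with earlier results of these arrays known, so the choice was not blind to the data. All probe sets annotated with 1 of these 10 symbols were taken, which gave 27 of the 54613 probe sets of the array that are not controls. Each of the 10 genes had at least 1 probe set bright enough to enter the comparison, in which 12375 genes were compared in all.

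The question was how the ligand and latent-complex genes stood in A549 cells, a human lung carcinoma line, after exposure to TGF-β itself. TGF-β cells were exposed to the cytokine at 1 ng/ml over 12 h, and control cells were the same line without it. The study's methods list the reagent as TGF-β1. Each condition was measured on 1 Affymetrix array, so there is no replicate check, no test and no SD for any ratio below. RNA came from whole cultures, so fewer expressing cells and less RNA per cell cannot be told apart.

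TGF-β is secreted as an inactive dimer in which the propeptide stays wrapped around the mature ligand. In most cells this small latent complex is joined by disulfide bonds to an LTBP, and the LTBP anchors it to fibrillin microfibrils and fibronectin. The ligand is released when integrins pull on the complex or when proteases cut it, so the amount of matrix-bound ligand and its release are controlled apart from transcription of the ligand gene.

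Signals are MAS5 intensities on a linear scale. The mean signal after trimming 2% of the probe sets at each end was 500.1 on each array. Folds divide the TGF-β signal by the control signal, or are inverted where a gene was lower. The background level is the highest signal of 27 Bacillus subtilis control probe sets, 56.6 on the TGF-β array and 45.8 on the control array. A gene was compared by its brightest probe set with a mean signal of at least 48.7, the median over probe sets, and was called higher or lower at 2-fold, which is a rule of size. The spread given beside a gene is a scaled median absolute deviation of the log2 ratios of the 500 probe sets nearest in brightness, so it describes probe sets on this pair of arrays and not cultures. As a check of the treatment, 10 Smad response genes were measured, of which 6 were at least 2-fold higher with TGF-β, among them CCN2 with 6533 on the TGF-β array and 674 on the control array, and ID2 was lower with 408 on the TGF-β array and 1453 on the control array. The other 5 were PMEPA1 (3.79-fold), JUNB (3.77-fold), BHLHE40 (3.28-fold), SKIL (2.72-fold) and SMAD7 (2.06-fold), and further probe sets of PMEPA1 read up to 6.84-fold higher. By their brightest probe sets, ID3 was 1.54-fold higher, ID1 1.18-fold lower and TGIF1 1.06-fold lower. The list was set down with earlier results of these arrays known, so it is not an independent check.

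LTBP2 was the only gene of the 10 that was at least 2-fold higher with TGF-β, and none was at least 2-fold lower. Over all 12375 genes, 3.94% were at least 2-fold higher and 2.96% at least 2-fold lower. At the smaller size of 1.5-fold, TGFB2, LTBP2 and LTBP3 were higher, against 9.16% of all genes, and FBN2 was lower, against 9.08% of all genes. In direction alone, 8 of the 10 genes were higher with TGF-β and TGFB3 and FBN2 were lower, while 45.4% of all genes were higher. The median log2 ratio of the 10 genes was 0.35, and that of all genes was -0.03. When _s_at, _x_at and _a_at probe sets, whose names mark shared targets, were left out, 6 of the 10 genes kept a value, of which 3 were higher and 3 lower, with a median log2 ratio of -0.0097. By role, the median log2 ratio was 0.33 for the 3 ligands and 0.68 for the 4 LTBPs, and the 2 fibrillins lay on opposite sides of 0.

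**Figure D1:**
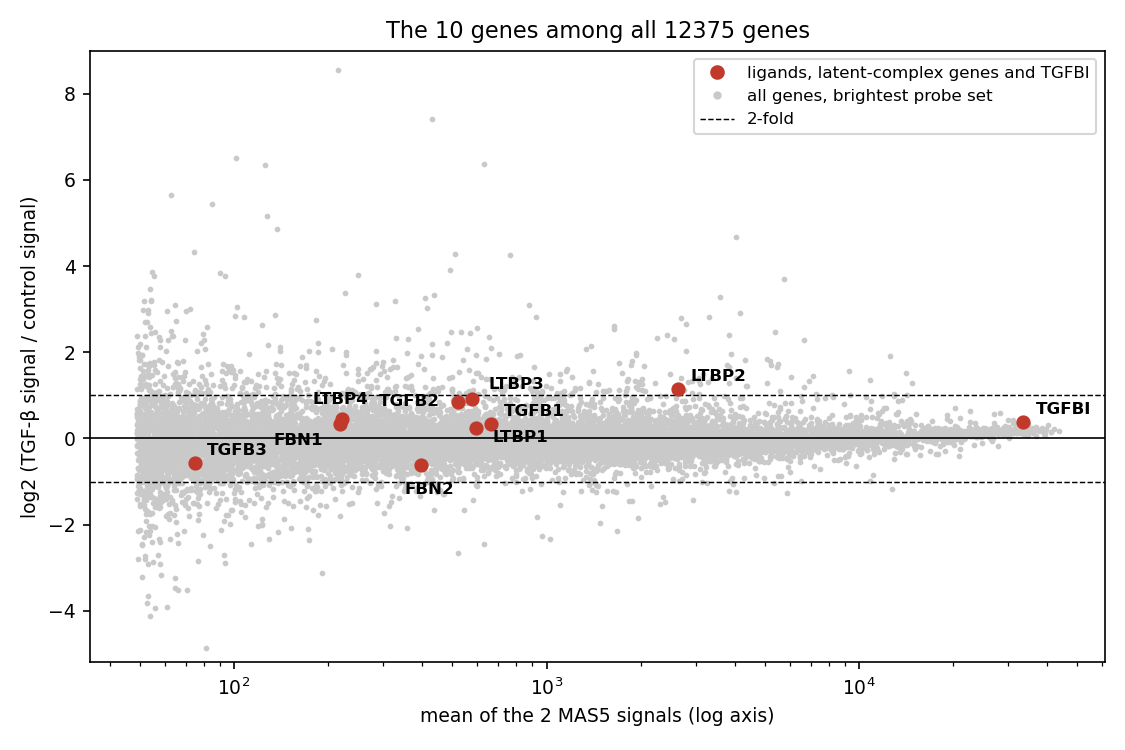
Log2 ratio of the TGF-β signal to the control signal (y axis) against the mean of both MAS5 signals (x axis, log axis) for 12375 genes, each by its brightest probe set, 1 array per condition. Red points are the 10 genes of the ligand and latent-complex group, and dashed lines mark 2-fold. Among the 10, LTBP2 alone lies above the upper 2-fold line, at 1.14, and none lies below the lower line.

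The 3 ligand genes did not share a direction. TGFB2, which encodes a ligand whose propeptide lacks the integrin-binding RGD sequence of its relatives, had 3 probe sets above background on both arrays. The brightest, 228121_at, read 671 with TGF-β and 372 in control cells, a 1.80-fold difference with a log2 ratio of 0.85 and a spread of 0.33 at this brightness. Probe set 209909_s_at read 274 with TGF-β and 155 in control cells, 1.77-fold higher. Probe set 220407_s_at read 111 with TGF-β and 70.5 in control cells, 1.58-fold higher. All 3 were thus higher with TGF-β by similar sizes. The other TGFB2 probe sets, 220406_at and 209908_s_at, were at background on both arrays, with signals of 16.1 and 1.49 with TGF-β and of 17.4 and 2.32 in control cells.

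TGFB1 encodes the ligand that was added to the cells as protein. Its probe set 203085_s_at read 742 with TGF-β and 588 in control cells, 1.26-fold higher. The log2 ratio of 0.33 was close to the spread of 0.31 among probe sets of this brightness. A second TGFB1 probe set, 203084_at, was below background on both arrays at 21.1 with TGF-β and 27.7 in control cells. TGFB3, the remaining ligand, was near the limit of the measurement. Its probe set 209747_at read 60.1 with TGF-β, just above the background of that array, and 89.4 in control cells, 1.49-fold lower. The log2 ratio of -0.57 was smaller in size than the spread of 0.62 at this brightness. Its other probe set, 1555540_at, read 6.77 with TGF-β and 4.04 in control cells, both at background.

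LTBP2, a microfibril protein that unlike its relatives does not bind the latent TGF-β complex, had the largest log2 ratio of the 10 genes. Its probe set 204682_at read 3626 with TGF-β and 1645 in control cells, 2.20-fold higher. The log2 ratio was 1.14 and the spread at this brightness 0.25, and the gene ranked 390 from the highest log2 ratio among the 12375 genes. Its other probe set, 223690_at, read 1833 with TGF-β and 544 in control cells, 3.37-fold higher with a log2 ratio of 1.75. Neither probe set has a name that marks shared targets, and both passed 2-fold.

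LTBP3, which binds the latent complexes of the TGF-β ligands and assists their secretion, gave 3 probe sets above background on both arrays. The brightest, 227308_x_at, read 752 with TGF-β and 399 in control cells, 1.89-fold higher with a log2 ratio of 0.92 and a spread of 0.34. Probe set 219922_s_at read 671 with TGF-β and 299.6 in control cells, 2.24-fold higher. Probe set 237144_at lay in the other direction at 65.3 with TGF-β and 85.6 in control cells, 1.31-fold lower with a log2 ratio of -0.39 and a spread of 0.62. The endings _x_at and _s_at of the 2 higher probe sets mark probes that can bind more than 1 transcript, and the lower one is the only LTBP3 probe set without such a mark. The direction of LTBP3 therefore turned with the choice of probe set, and LTBP3 would have been called higher by 219922_s_at.

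LTBP1, the main carrier of latent TGF-β1, differed little. Probe set 202729_s_at read 645 with TGF-β and 544 in control cells, 1.19-fold higher, and 202728_s_at read 164 with TGF-β and 143 in control cells, 1.15-fold higher. Both log2 ratios, 0.25 and 0.20, were below the spreads of 0.29 and 0.41 at their brightness. LTBP4, which takes part in elastic fibre assembly, was 1.37-fold higher by 204442_x_at, with 255.5 with TGF-β and 187 in control cells. It was 1.21-fold higher by 210628_x_at, with 85.1 with TGF-β and 70.4 in control cells. Probe set 227989_at, the LTBP4 probe set without a shared-target mark, read 70.5 with TGF-β and 15.5 in control cells, and because the control signal was at background the difference was at least 1.54-fold. The last, 213176_s_at, was at background on both arrays at 18.6 with TGF-β and 5.86 in control cells. The 2 LTBP4 probe sets with both signals above background were thus higher with TGF-β, neither reaching 1.5-fold. Their log2 ratios were 0.45 and 0.27, beside spreads of 0.39 and 0.60 at their brightness.

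**Figure D2:**
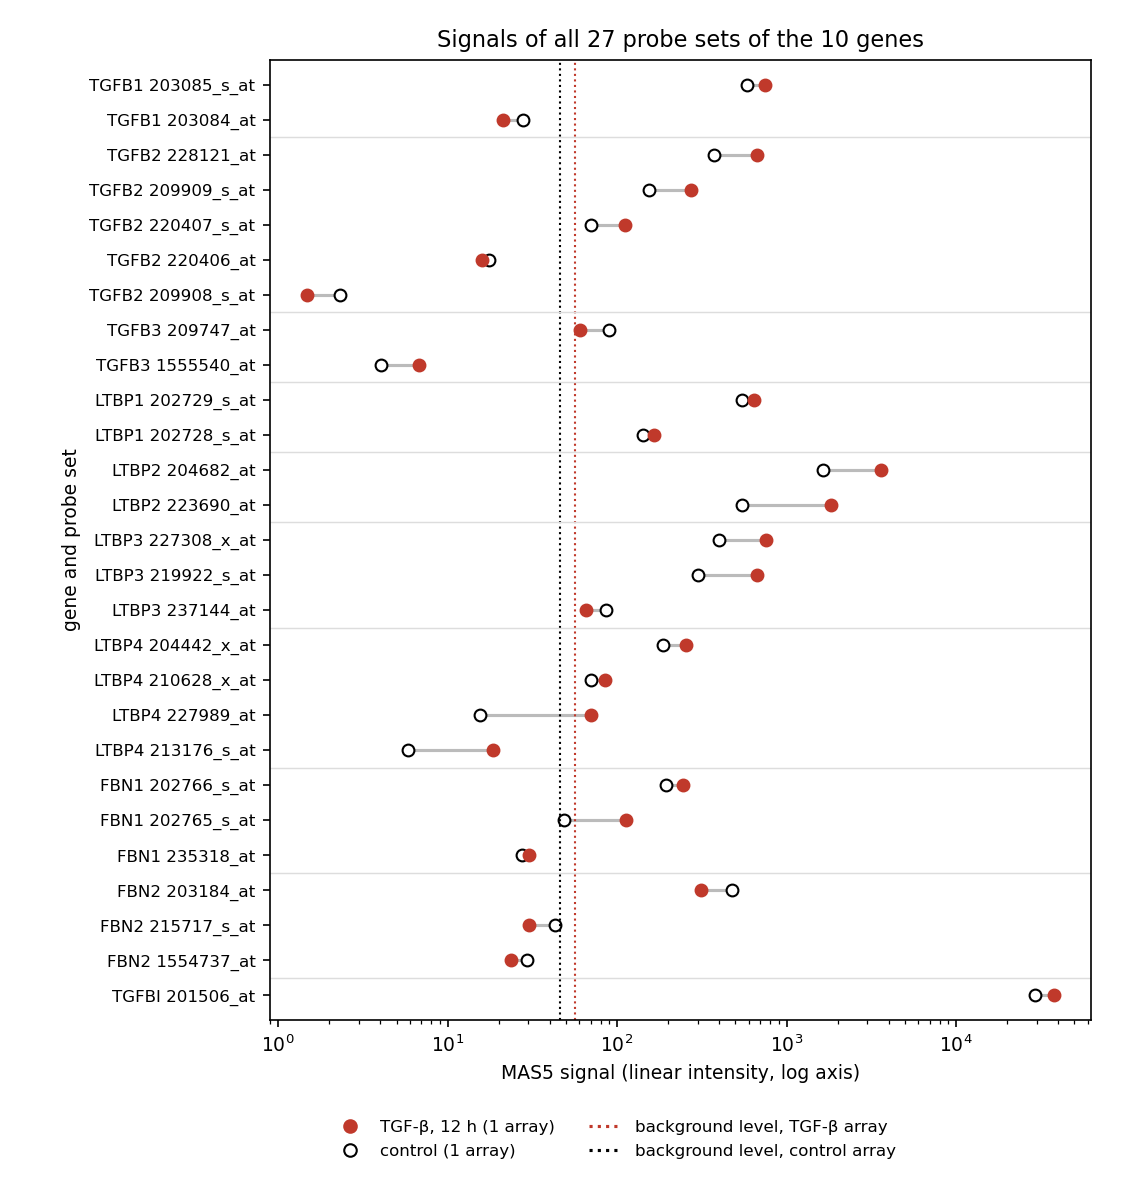
MAS5 signals (x axis, log axis) of the 27 probe sets of the 10 genes (y axis), with filled red points for the TGF-β array and open points for the control array, and dotted lines at the background level of each array, 56.6 for TGF-β and 45.8 for control. The pairs of points lie farthest apart, among probe sets above both lines, for LTBP2 223690_at, and 8 probe sets lie below background on both arrays.

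The sequences around the starts of the genes that differed by at least 1.5-fold are shown because they are where Smad complexes, the transcription factors activated by TGF-β receptors, could be looked for by letter. They are RefSeq windows of 300 bases, 250 before and 50 after an annotated start, of the assembly GRCh38.p14. RefSeq gave 15 windows for the 10 genes, and where a gene had several, the most upstream is shown. Capitals mark CAGAC or its reverse complement GTCTG, the core of the Smad-binding sequence. The windows lie at chr14:74612188-74612487 (minus strand) for LTBP2, chr11:65558310-65558609 (minus strand) for LTBP3, chr1:218345086-218345385 (plus strand) for TGFB2 and chr5:128538196-128538495 (minus strand) for FBN2, which was lower.
LTBP2: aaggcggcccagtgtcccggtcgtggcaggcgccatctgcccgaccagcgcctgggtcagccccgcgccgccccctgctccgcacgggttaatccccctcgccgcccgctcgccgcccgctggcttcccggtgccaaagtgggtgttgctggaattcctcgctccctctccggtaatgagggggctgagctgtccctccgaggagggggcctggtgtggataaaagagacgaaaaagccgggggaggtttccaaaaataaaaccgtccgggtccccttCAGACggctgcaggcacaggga
LTBP3: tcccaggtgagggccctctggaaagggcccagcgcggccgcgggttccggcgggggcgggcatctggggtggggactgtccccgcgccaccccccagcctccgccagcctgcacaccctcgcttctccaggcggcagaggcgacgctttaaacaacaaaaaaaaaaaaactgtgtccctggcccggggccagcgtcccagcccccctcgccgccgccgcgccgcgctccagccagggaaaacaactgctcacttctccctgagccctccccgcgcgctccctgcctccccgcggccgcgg
TGFB2: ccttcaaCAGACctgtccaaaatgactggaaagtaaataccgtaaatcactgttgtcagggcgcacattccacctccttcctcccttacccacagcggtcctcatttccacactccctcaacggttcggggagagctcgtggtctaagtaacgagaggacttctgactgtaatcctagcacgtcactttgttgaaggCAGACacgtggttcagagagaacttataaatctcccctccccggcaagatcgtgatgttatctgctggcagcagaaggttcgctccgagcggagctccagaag
FBN2: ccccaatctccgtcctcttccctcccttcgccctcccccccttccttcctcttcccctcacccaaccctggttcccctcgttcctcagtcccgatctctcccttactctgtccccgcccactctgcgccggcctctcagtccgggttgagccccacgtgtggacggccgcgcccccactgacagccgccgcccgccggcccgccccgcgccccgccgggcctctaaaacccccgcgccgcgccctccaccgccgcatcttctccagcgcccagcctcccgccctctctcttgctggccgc
The TGFB2 window held CAGAC at 2 places, starting at bases 8 and 198 of the window. The LTBP2 window held it at 1 place, starting at base 279, which is after the annotated start. Among genes that differed by less than 1.5-fold, the most upstream TGFB3 window also held 2 matches, and each LTBP1 window held at least 1. The shown LTBP3 and FBN2 windows held none, and the second LTBP3 window, which overlaps the first, held 1. On either strand, CAGAC was found in 8 of the 15 windows of the 10 genes and in 45.3% of 35116 RefSeq windows. The AP-1 sequence TGANTCA, searched on both strands, was in none of the 15 windows and in 7.71% of all windows. The GC box GGGCGG, also on both strands, was in 8 of the 15 windows and in 45% of all windows, with 3 matches in the LTBP2 window and 4 in the FBN2 window. None of the 3 motifs contains another, and a match is a match of letters and not a shown binding site.

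The fibrillins, which polymerize into the microfibrils that LTBPs attach to, had opposite directions. FBN2, the fibrillin best known from developing tissue, read 313 with TGF-β and 478 in control cells by probe set 203184_at, 1.53-fold lower. Its log2 ratio was -0.61, with a spread of 0.36 at this brightness. The other FBN2 probe sets were at background on both arrays, 215717_s_at with 30.1 with TGF-β and 43.2 in control cells and 1554737_at with 23.8 with TGF-β and 29.3 in control cells. After adding 50 to every signal, after loess, or after setting both medians equal, FBN2 was less than 1.5-fold lower.

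FBN1, the fibrillin mutated in Marfan syndrome, was 1.26-fold higher by its brightest probe set 202766_s_at, with 243 with TGF-β and 193 in control cells. The log2 ratio of 0.33 was below the spread of 0.38. Probe set 202765_s_at read 113 with TGF-β and 48.9 in control cells, just above background, a 2.30-fold difference with a log2 ratio of 1.20 and a spread of 0.60. Probe set 235318_at was at background on both arrays, with 30.4 with TGF-β and 27.6 in control cells. The fold of FBN1 thus depended on which probe set was read, while its direction did not.

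TGFBI is a secreted matrix protein with fasciclin domains and an integrin-binding RGD sequence, and its cDNA was originally isolated from A549 cells treated with TGF-β. Its single probe set, 201506_at, read 37869 with TGF-β and 29261 in control cells, 1.29-fold higher. The highest signal of any probe set was 46258 on the TGF-β array and 40815 on the control array, so TGFBI lay near the top of the range on both. The 500 probe sets nearest in brightness had a median log2 ratio of 0.15 and a spread of 0.097. Only 46 probe sets on the TGF-β array and 124 on the control array were brighter than TGFBI, so most of these 500 were dimmer than TGFBI. The log2 ratio of TGFBI was 0.37 as deposited, 0.28 after loess and 0.19 after quantile normalization, higher with TGF-β in each case.

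Over all probe sets of the 10 genes, 18 of 27 were above background on both arrays, 8 were at background on both and 1 was above it on the TGF-β array only. Of the 18, 4 were at least 2-fold higher with TGF-β, 2 of them for LTBP2 and 1 each for LTBP3 and FBN1, beside 2.73% of all 21195 such probe sets with 1 gene symbol. At 1.5-fold, 8 of the 18 were higher and 1 was lower, beside 7.94% higher and 6.58% lower among all such probe sets. Probe sets of a gene share the RNA and the array, so their agreement describes the probes and not the cultures. Of the 6 genes with at least 2 probe sets above background on both arrays, 5 had all of them in the same direction, and LTBP3 did not. Among all 5610 such genes the share was 56.9%. TGFB2 and LTBP2 had all of theirs at least 1.5-fold higher, beside 3.1% of all such genes.

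**Figure D3:**
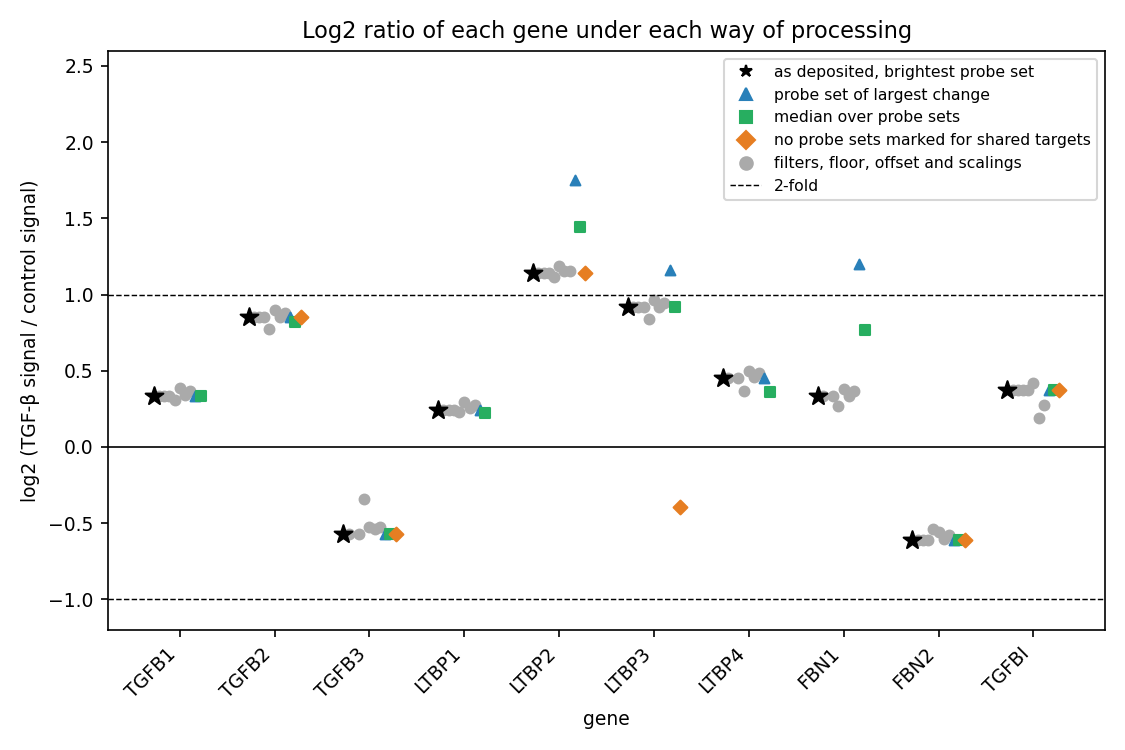
Log2 ratio of TGF-β to control (y axis) of each of the 10 genes (x axis) as deposited (star) and under each alternative that gave a value (other symbols), with dashed lines at 2-fold. LTBP2 stays above the upper line throughout, between 1.12 and 1.75, LTBP3 lies at -0.39 when probe sets marked for shared targets are left out, and FBN1 reaches 1.20 by its probe set of largest change.

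The 10 genes were read beside other genes of the pathway, in lists set down with earlier results of these arrays known. Of 19 genes that activate or release latent TGF-β, 13 were measured, of which 5 were at least 2-fold higher, with a median log2 ratio of 0.62, and 0 were at least 2-fold lower once signals at background were read as bounds. Over all genes, 3.94% were at least 2-fold higher. The 5 higher genes of the list were the matrix protein THBS1, the integrin subunit ITGAV, the plasminogen activator PLAU and the gelatinases MMP2 and MMP9. Without probe sets marked for shared targets, 3 were at least 2-fold higher (THBS1, ITGAV and MMP2), and ITGB1, PLAT, PLAU, MMP9 and KLK3 gave no value. ITGAV, the alpha chain shared by the integrins that activate latent TGF-β, read 17297 with TGF-β and 8522 in control cells, 2.03-fold higher, and its log2 ratio was 0.96 after quantile normalization and 0.97 after loess, both under 2-fold. THBS1, which can free the ligand from its propeptide, read 2799 with TGF-β and 478 in control cells, 5.85-fold higher by its brightest probe set. Its other 3 probe sets above background on both arrays were 3.79-fold, 3.22-fold and 2.80-fold higher, the last being the one without a shared-target mark. PLAU read 20966 with TGF-β and 7279 in control cells, 2.88-fold higher. MMP2 read 1550 with TGF-β and 719 in control cells, 2.15-fold higher. MMP9 read 197 with TGF-β and 85.2 in control cells, 2.31-fold higher. The ratio of ITGB8 could only be bounded. ITGB8 is the beta chain of an integrin that activates latent TGF-β, and it read 18.4 with TGF-β, below background, and 97.4 in control cells, at least 1.72-fold lower. ITGB3 and the cell-surface carriers of latent TGF-β LRRC32 and NRROS had no probe set above background on either array.

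Of 24 microfibril and elastic fibre partners, 17 were measured, of which 3 were at least 2-fold higher and 1 lower, with a median log2 ratio of 0.15. Over all genes, 3.94% were at least 2-fold higher and 2.96% at least 2-fold lower. Without probe sets marked for shared targets, 2 partners were at least 2-fold higher (FN1 and TGM2) and 0 lower. LOX and ADAMTS10 were among those that then gave no value. FN1, fibronectin, to which LTBP1 is anchored in the matrix, read 5855 with TGF-β and 2226 in control cells, 2.63-fold higher. LOX, which crosslinks collagen and elastin, read 168 with TGF-β and 11.8, below background, in control cells, at least 3.66-fold higher. The crosslinking enzyme TGM2, which links LTBP1 to the matrix, read 3939 with TGF-β and 1896 in control cells, 2.08-fold higher by its brightest probe set. Its probe sets 211003_x_at and 211573_x_at, also above background on both arrays, were 1.70-fold and 1.87-fold higher, both under 2-fold. ADAMTS10, a protease-family protein that binds fibrillin, read 82.6 with TGF-β and 176 in control cells, 2.13-fold lower. ELN, elastin, was at background on both arrays. Among 4 measured receptors and co-receptors, with a median log2 ratio of -0.41, TGFBR1 was called higher and none was called lower. TGFBR1 was 3.90-fold higher, with 6178 with TGF-β and 1586 in control cells. TGFBR2 was 1.67-fold lower by its brightest probe set, with 1990 with TGF-β and 3321 in control cells, and CD109 was 1.05-fold lower. The TGFBR1 probe set 236561_at, which has no shared-target mark, read 107 with TGF-β and 53.5 in control cells, a log2 ratio of 0.997 and so just under 2-fold. TGFBR3, a co-receptor that presents TGF-β2, was 1.89-fold lower by its brightest probe set, with 535 with TGF-β and 1011 in control cells, and 2.37-fold lower by the other.

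**Figure D4:**
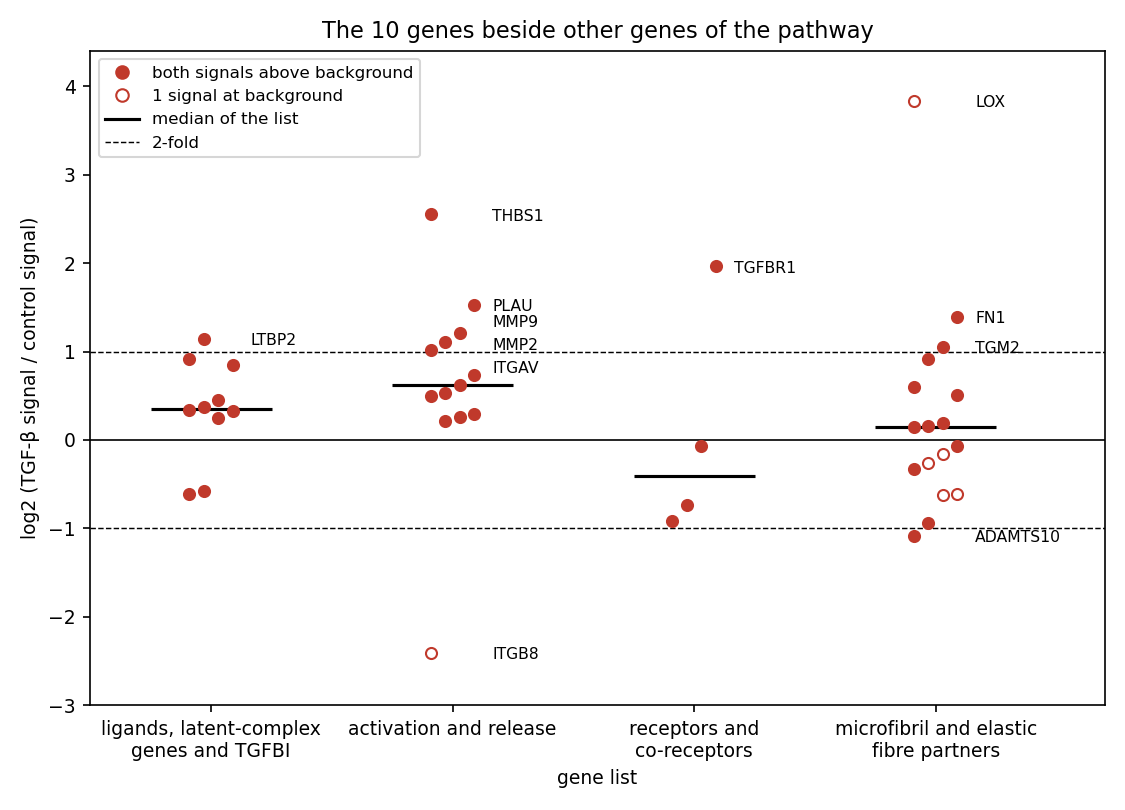
Log2 ratio of TGF-β to control (y axis) of the measured genes of 4 lists (x axis), each by its brightest probe set, with the median of each list as a bar and dashed lines at 2-fold. Open points have 1 signal at background, so that only a bound on their fold can be given, and LTBP2 is the only one of the 10 ligand and latent-complex genes past 2-fold, beside 5 of 13 genes of activation and release, while the open point of ITGB8 stands for a fold of at least 1.72.

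The culture was checked against markers of its own and of other cell types. All 9 epithelial and A549 markers were above background on both arrays, with CDH1 2.31-fold lower with TGF-β and the others neither higher nor lower at 2-fold. Fibroblasts express fibrillins and LTBPs strongly, and of 8 fibroblast markers none had its brightest probe set above background on both arrays, and their summed signal was 177 with TGF-β and 242 in control cells. THY1 read 21.8 with TGF-β, below background, and 82.5 in control cells, at least 1.46-fold lower, and LUM and COL6A3 were at background on both arrays. Of 5 endothelial markers 1 had its brightest probe set above background on both arrays. It was PECAM1, with 65.4 with TGF-β and 56.4 in control cells, 1.16-fold higher. All other PECAM1 probe sets were at background on both arrays. The summed signal of the 5 endothelial markers was 121 with TGF-β and 93.2 in control cells. Of 5 immune markers, 4 had a probe set and 2 were above background on both arrays, with a summed signal of 199 with TGF-β and 298 in control cells. These 2 went in opposite directions. CD14, a monocyte marker, read 63.0 with TGF-β and 190 in control cells, 3.02-fold lower. CD3E read 74.8 with TGF-β and 48.8 in control cells, 1.53-fold higher. The part of these markers in the results for the 10 genes was not tested.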

How the data were processed

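RNA from A549 cells with TGF-β and from A549 cells without it was hybridized to 1 array each. The number of cultures behind each array is not given in the sources used here. The deposited values are MAS5 intensities, linear and scaled by the authors to a common trimmed mean. For the MAS5 version and the genome build, the sources used here give nothing. Gene symbols came from the platform annotation, in which 41091 probe sets carried 1 symbol, 1801 several and 11721 were not listed; symbols were updated by gene identifier to the RefSeq annotation of GRCh38.p14, which also supplied the promoter windows. Ratios, filters and alternatives were computed in Python 3.11.15 (statsmodels 0.14.6 for loess, scipy 1.17.1 for trimmed means, pandas 2.3.3, numpy 2.4.6) and figures in matplotlib 3.10.9. The calling rule was run on simulated data with changes far larger than 2-fold and equal noise at every brightness. That run checks the code and says nothing about the calls made here.

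Each gene was taken by its brightest probe set with a mean signal of at least 48.7. Every probe set of the 10 genes is reported, and of the other lists the genes past 2-fold or, where the list had none, the gene of largest change. Further genes and the promoters shown were picked after their values were seen, and the members and lists were chosen with earlier results of these data known. A signal at or under background was replaced by the background level to give a bound. Alternatives were no filter, a filter at the 75 percentile (349), a floor at background, an offset of 50, 3 scalings (medians, quantiles, loess with span 0.3), the probe set of largest change, the median over probe sets, leaving out _s_at, _x_at and _a_at probe sets, and a 1.5-fold rule. Several symbols or none kept a probe set out of gene counts. With 1 array per condition no test was made.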

Additional observations from a re-analysis of the deposited data

How the results depend on the processing

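The alternatives say nothing about variation between cultures. No paired analysis was possible because each condition had 1 array. Of 93 values for single genes of the ligand and latent-complex group, 87 moved by less than the spread at their brightness, 5 moved by more and 1 changed sign. The filters and the floor could only leave a value as it was or drop it, since the brightest probe sets were above background on both arrays. Setting the medians equal shifted every gene by the same amount. The 87 therefore include values that could not move. The sign change was LTBP3, at -0.39 on the log2 scale when _s_at, _x_at and _a_at probe sets were left out, a setting under which TGFB1, LTBP1, LTBP4 and FBN1 gave no value and the median log2 ratio of the 6 genes left was -0.0097. The log2 ratio of LTBP2 was 1.75 and that of FBN1 1.20 by the probe set of largest change, 1.45 and 0.77 by the median over probe sets, and that of TGFBI was 0.19 after quantile normalization. By the probe set of largest change, 3 of the 10 genes were at least 2-fold higher (LTBP2, LTBP3 and FBN1). With 1.5-fold as the size called and the brightest probe set, 3 were higher and 1 was lower. The stricter filter left no value for TGFB3, LTBP4 and FBN1. Over all genes, the 487 at least 2-fold higher and 366 lower became 2110 and 2395 without a filter, 197 and 63 with the stricter filter, 295 and 134 with the offset, and 1133 and 1124 at 1.5-fold, while 204 were lower with the floor at background and 596 when each gene was read from its most different probe set. Dim signals are those that the filters, the floor and the offset remove or shrink. For the remaining changes the cause was not tested.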

Other observations

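Other proteins with fasciclin domains, the domain that TGFBI carries, were at or near background. POSTN, periostin, had no probe set above background on either array. STAB1, a scavenger receptor, read 79.7 with TGF-β and 26.5 in control cells, and because the control signal was below background the difference was at least 1.74-fold. STAB2 was at background on both arrays.

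FURIN, the convertase that cuts the TGF-β propeptide from the ligand, read 293 with TGF-β and 203 in control cells, 1.45-fold higher. BMP1, a protease that cleaves LTBP1 from the matrix, read 290 with TGF-β and 188 in control cells, 1.54-fold higher by its brightest probe set, and its other 2 probe sets above background were 1.26-fold and 1.34-fold higher. These genes were picked after their values were seen.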
